A study of Mus musculus with 238 samples.

Results

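The immediate early genes described here are 10 of the 21076 genes in the count table: Fos, Fosb, Junb, Egr1, Egr2, Npas4, Nr4a1, Arc, Ier2 and Dusp1. They were taken by name, and all 10 had a row. RNA was sequenced from 15 brain regions of C57BL/6JN mice aged 19 months, in a pair of experiments that asked where in the brain interventions aimed at rejuvenation act. In the diet experiment, female mice were either on dietary restriction (aDR, 5 mice) or fed ad libitum (AL, 4 mice), and liver was sequenced from the same 9 mice. In the plasma experiment, male mice received retro-orbital injections of young mouse plasma (YMP, 3 mice) or of PBS (4 mice). The labels name no transgene or deletion in any of the mice. Sex and experiment cannot be told apart, so the experiments were tested separately.

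Immediate early genes are switched on within minutes of synaptic activity or another stimulus, without new protein synthesis, by transcription factors such as CREB and SRF that are already present in the cell. Many of their products are themselves transcription factors that start a later wave of genes, and their mRNAs are short-lived, so a level in dissected tissue reflects the time shortly before sampling. Fos, Fosb and Junb encode AP-1 subunits. Egr1 and Egr2 encode zinc-finger transcription factors, Npas4 an activity-dependent basic helix-loop-helix factor of neurons, and Nr4a1 an orphan nuclear receptor. Arc encodes a postsynaptic protein that regulates AMPA receptors, Ier2 a small nuclear protein, and Dusp1 a phosphatase that inactivates MAP kinases and is also known to be induced by glucocorticoids.

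CREB binds the cAMP response element (CRE), and the promoters of 4 members are shown as examples. Whether such sites have a part in the levels of the members was not tested. RefSeq's promoter table for GRCm38.p6 had an entry for 7 of the 10 genes: Fos, Fosb, Junb, Egr2, Npas4, Nr4a1 and Dusp1. The 250 bases before the start site are given 5′ to 3′ in the gene's direction, with capitals on every match of the CRE half-site TGACG on either strand, including the full CRE TGACGTCA:

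Fos (chr12:85473640-85473889, + strand): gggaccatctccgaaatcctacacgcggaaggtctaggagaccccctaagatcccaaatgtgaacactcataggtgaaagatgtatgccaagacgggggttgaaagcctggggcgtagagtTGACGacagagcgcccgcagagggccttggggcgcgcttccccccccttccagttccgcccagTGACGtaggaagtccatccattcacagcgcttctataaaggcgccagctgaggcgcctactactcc

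Npas4 (chr19:4989972-4990221, - strand): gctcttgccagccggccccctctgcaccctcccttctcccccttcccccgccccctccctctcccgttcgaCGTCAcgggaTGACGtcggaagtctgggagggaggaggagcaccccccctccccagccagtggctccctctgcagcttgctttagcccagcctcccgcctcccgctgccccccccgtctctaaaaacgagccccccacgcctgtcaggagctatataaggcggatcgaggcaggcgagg

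Nr4a1 (chr15:101266596-101266845, + strand): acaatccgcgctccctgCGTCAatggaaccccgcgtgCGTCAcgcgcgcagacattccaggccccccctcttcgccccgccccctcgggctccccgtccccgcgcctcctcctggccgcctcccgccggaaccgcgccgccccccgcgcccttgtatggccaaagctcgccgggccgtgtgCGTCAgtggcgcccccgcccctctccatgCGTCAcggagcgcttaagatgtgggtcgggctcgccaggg

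Dusp1 (chr17:26508473-26508722, - strand): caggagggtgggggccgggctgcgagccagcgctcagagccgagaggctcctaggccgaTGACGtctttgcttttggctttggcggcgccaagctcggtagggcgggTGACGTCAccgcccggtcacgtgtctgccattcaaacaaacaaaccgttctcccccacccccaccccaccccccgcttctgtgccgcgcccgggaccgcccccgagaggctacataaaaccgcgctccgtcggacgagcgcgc

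At least 1 half-site was found in all 7 genes with an entry, against 17.8% of the 32851 promoter windows of that length in the table. Genes and windows are unlike units. Egr2 had several windows, some of them overlapping, and not all of its windows held a half-site or a CArG box. In Fos the nearest half-site began 66 bases before the start, in Nr4a1 40 bases before it, in Npas4 169 and in Dusp1 140. The full CRE was present in 1 of the 7 genes, Dusp1, where it began 143 bases before the start and overlaps 2 of that gene's half-sites. It was found in 1.55% of all windows. The CArG box, which SRF binds, was matched in 1 of the 7, Egr2, against 1.47% of windows. The EGR site GCGNGGGCG was matched in Fosb and Nr4a1 (4.7% of windows), and the AP-1 site TGANTCA in 0 of the 7 (6.75%). These matches describe letters, not occupied sites.

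The count table held 238 libraries, all from brain but for 9 from liver, with 0.606 M to 32.4 M counts each (median 8.44 M, where M is mega), and 6 were under 2 M. Each region had 3 to 5 mice per group, apart from 2 YMP mice in corpus callosum. Levels are given as CPM, counts scaled to a library of 1 M, after TMM scaling, a correction for library composition. Region labels were checked against markers. Doc2g, Tbx21 and Th were highest in olfactory bulb, Gabra6 and Pcp2 in cerebellum, and Drd2 in caudate putamen. Other markers peaked outside the region they were listed for. Mbp, listed for corpus callosum, and Hoxb2, for pons, were highest in medulla. Dcx, for subventricular zone, was highest in olfactory bulb, and Tbr1, for entorhinal cortex, in motor cortex. Hcrt was highest in hypothalamus, but its lowest library there held 0.160 CPM. The libraries labelled choroid plexus held neuronal RNA (control mean of Snap25, a synaptic gene, 2964 CPM), and the plexus gene Ttr was higher in corpus callosum controls (7733 CPM) than in theirs (6341 CPM). When each brain library was correlated with the mean profiles of the 15 regions over the 2000 genes that differed most between regions, 14 lay nearest a region other than their label, 10 of them in the plasma experiment. Of these 14, the entorhinal cortex library of PBS mouse 72 had the largest gap between its nearest and its labelled region (r = 0.855 with visual cortex and 0.598 with entorhinal cortex). The libraries carry no strand, so reads of overlapping antisense genes could not be separated, and in homogenised tissue fewer cells expressing a gene and less RNA per cell cannot be told apart.

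By mean rank over the 10 genes, visual cortex, motor cortex and olfactory bulb were at the top in control mice. Hypothalamus and medulla were at the bottom. Entorhinal cortex had a mean rank of 8.1 in AL mice. Single genes departed from this order. Fos had thalamus, pons and cerebellum at ranks 4, 5 and 6 in AL mice, and caudate putamen at 12. Ier2 had caudate putamen at rank 14 in AL and 15 in PBS mice. Visual cortex had the highest mean for 8 of 10 genes in AL mice, and olfactory bulb for the other 2, Fosb and Npas4. Visual cortex was among the 3 highest regions for all 10, in AL and in PBS mice. Medulla came last, with a mean rank of 13.4 in both groups. The order of the 15 regions was alike in the separate control groups: Spearman's rho between the AL and the PBS means ran from 0.839 (Dusp1) to 0.986 (Junb and Npas4). These are 15 regions of the same few mice, and the groups differ in sex and experiment.

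**Figure D1:**
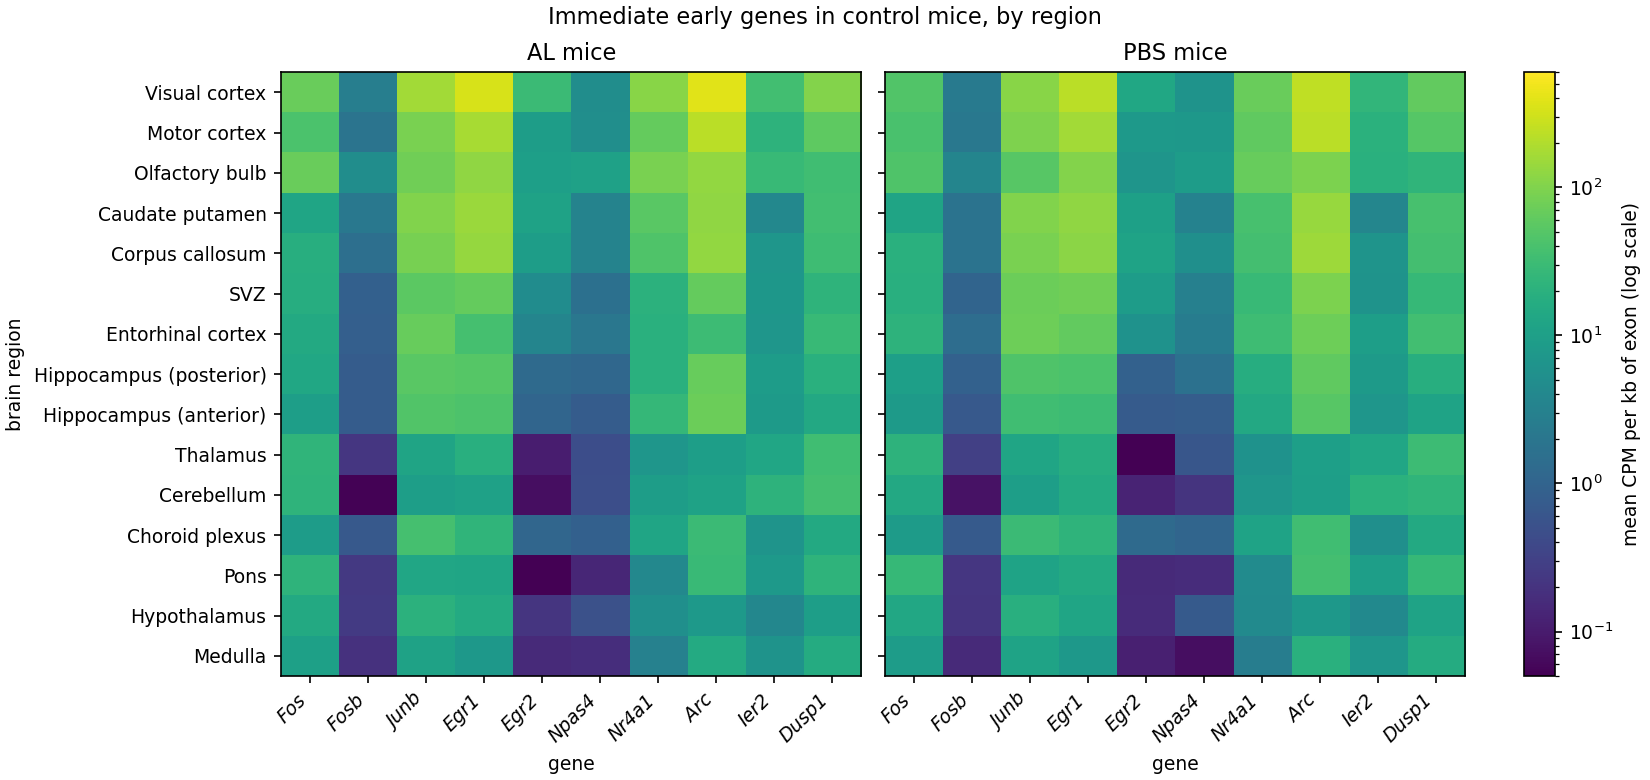
Mean level of each gene (columns) in each of 15 brain regions (rows, ordered by mean rank in AL mice) of control mice, as CPM per kb of exon on a log colour scale, with values under 0.05 drawn at 0.05. Visual cortex is the top row in AL and in PBS mice, and Egr2, Fosb and Npas4 reach their lowest values in the rows below hippocampus.

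Per kb of exon, which allows levels of different genes to be compared, Arc (90.1 CPM per kb, mean of the 15 AL region means), Egr1 (80.7) and Junb (56.9) were the most abundant. Nr4a1 (33.1), Dusp1 (32.1), Fos (24.7) and Ier2 (12.4) followed, while Egr2 (5.46), Npas4 (2.38) and Fosb (1.22) were the scarcest. The first 3 places and the last 4 were the same in PBS mice. In GENCODE's annotation of GRCm38, Arc lies on chr15:74669083-74672570 and Nr4a1 on the same chromosome at 101254269 to 101274795, Fos on chr12:85473890-85477273, Npas4 on chr19:4984355-4990316 and Dusp1 on chr17:26505590-26562128.

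Among the AP-1 genes, Fos measured 166, 163, 160 and 178 CPM in the visual cortex of AL mice 63, 66, 68 and 69. Its olfactory bulb values spread more widely (163 ± 64.3, SD, n = 4) and overlapped those of visual cortex. The lowest AL mean of Fos was in choroid plexus, at 15.5, 23.4, 24.8 and 21.6 CPM in the same mice, a 7.82-fold lower mean. In its order of regions, 13 of 14 neighbours overlapped. Junb had a steeper order, from 351, 413, 358 and 399 CPM in visual cortex to 22.0, 22.8, 22.4 and 22.3 CPM in cerebellum, a 17.0-fold range. Its cerebellar values differed by less than 1 CPM between the AL mice. Fosb was highest in olfactory bulb (23.4, 29.5, 37.8 and 33.6 CPM), with no overlap with visual cortex, the next region (17.3 ± 1.70 CPM). It was close to the limit of detection in cerebellum, with at most 5 counts in an AL library.

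Of the zinc-finger genes, Egr1 measured 1428, 1749, 1480 and 1442 CPM in the visual cortex of the 4 AL mice, above every other region's libraries, and 42.4, 32.0, 26.9 and 32.6 CPM in medulla, a 45.6-fold range. Motor cortex (799 ± 141 CPM), caudate putamen (658 ± 144) and corpus callosum (607 ± 126) overlapped each other. The corpus callosum libraries also held the striatal gene Drd1 at a mean of 166 CPM in controls, against 223 in caudate putamen, and the part of that in these levels was not tested. Egr2 measured 128, 109, 82.2 and 84.5 CPM in AL visual cortex. In pons its AL libraries held at most 2 counts, so no fold is given. In PBS mice, visual cortex Egr2 was 52.5, 24.8 and 57.9 CPM in mice 76, 80 and 84.

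Npas4 was highest in olfactory bulb and varied there between mice, with 14.4 CPM in AL mouse 63 and 33.8, 63.5 and 65.5 CPM in AL mice 66, 68 and 69. All 14 neighbouring regions in its AL order overlapped. Nr4a1 measured 365, 419, 384 and 436 CPM in AL visual cortex and 8.45, 11.7, 8.99 and 14.2 CPM in medulla, a 37.1-fold range, and again all 14 neighbours overlapped. Arc ran from 863, 1428, 1203 and 1391 CPM in visual cortex to 16.5, 31.3, 23.9 and 22.4 CPM in hypothalamus, a 51.9-fold range. In both hippocampal dissections Arc was near 200 CPM (219 ± 64.5 anterior and 205 ± 69.8 posterior).

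In AL mice, Ier2 and Dusp1 departed from the mean order of regions in cerebellum. Ier2 was 33.2 ± 4.93 CPM there, the third highest AL region, and Dusp1 122 ± 39.3 CPM, also the third. Each overlapped the next region in its order. By contrast, the cerebellum had the lowest AL mean of Junb and Fosb. In PBS mice Ier2 was again at rank 3 in cerebellum (30.4 ± 4.80 CPM), but Dusp1 was at rank 10 (77.3 ± 21.6 CPM). Both genes had their lowest AL mean in hypothalamus (Ier2 5.93 ± 0.602 CPM, Dusp1 32.5 ± 5.14 CPM). In edgeR's quasi-likelihood F test with mouse as a block, all 10 genes differed between regions in AL and in PBS mice. So did 98.1% of all genes tested in AL and 97.6% in PBS mice, a share near that of the members.

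None of the 10 genes passed the edgeR test in any brain region in either experiment. Dietary restriction gave 0 of 141 testable pairs of gene and region with an adjusted p under 0.05 (edgeR quasi-likelihood test, Benjamini-Hochberg over all genes of a region), where 0.0525% of all such pairs passed. Without adjustment 22 of the 141 had p under 0.05, 13 of them higher in aDR mice, which is 15.6% against 6.24% of all pairs. DESeq2 on the same counts called 1 pair, Arc in cerebellum. The shares of all pairs are for edgeR, and no such share is given here for DESeq2. Pairs of a region share libraries and the genes vary together, so these are not independent.

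For pairs named because of their small p, in either experiment, a lack of overlap adds no support. The share of all pairs without overlap within regions is not given here. The pair with the smallest p was Arc in cerebellum. It measured 34.6, 34.0, 36.3 and 34.7 CPM in AL mice 63, 66, 68 and 69, and 22.0, 29.3, 25.8, 27.4 and 30.0 CPM in aDR mice 61, 62, 64, 65 and 67. All aDR values lay below all AL values (log2 change -0.39 ± 0.088, SE, edgeR adjusted p 0.122, DESeq2 adjusted p 0.0296). Junb went the other way in the same region, with 22.0 to 22.8 CPM in AL and 24.9 to 30.2 CPM in aDR mice (0.30 ± 0.072, adjusted p 0.141). Unadjusted p was under 0.05 in cerebellum also for Fos (0.56), Ier2 (0.33) and Egr1 (0.37), each higher in aDR mice.

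Arc in thalamus measured 23.8, 29.2, 40.7 and 24.1 CPM in AL mice and 14.6, 18.1, 19.95, 18.9 and 11.9 CPM in aDR mice, with no overlap (-0.83 ± 0.19, edgeR adjusted p 0.681). The fitted change of Arc was negative in 11 of 15 regions. In visual cortex, Arc in aDR mice was 1054, 1057, 993, 1201 and 940 CPM, within the AL range (-0.23 ± 0.10, edgeR adjusted p 0.501). AL mouse 63 set the low end of that range, and without it the change was -0.36 (edgeR adjusted p 0.0340). In motor cortex, Ier2 was 30.7, 30.7, 32.6 and 36.8 CPM in AL mice and 41.6, 40.0, 46.0, 43.2 and 36.1 CPM in aDR mice (0.32 ± 0.084, edgeR adjusted p 0.133). Aside from aDR mouse 67, all of these aDR values were above all AL values. Nr4a1 in motor cortex was 211, 241, 201 and 259 CPM in AL mice and 306, 228, 321, 284 and 269 CPM in aDR mice (0.31 ± 0.089, edgeR adjusted p 0.216), with overlap through aDR mouse 62. The highest single diet value of Nr4a1 was in pons (1.22). There aDR mouse 67 measured 75.1 CPM and the other aDR mice 17.9 to 29.8 CPM, against 12.5 to 15.6 CPM in AL mice. The library of mouse 67 had the lowest r with the pons profile of all pons libraries, 0.554. The part of this in its Nr4a1 value was not tested.

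**Figure D2:**
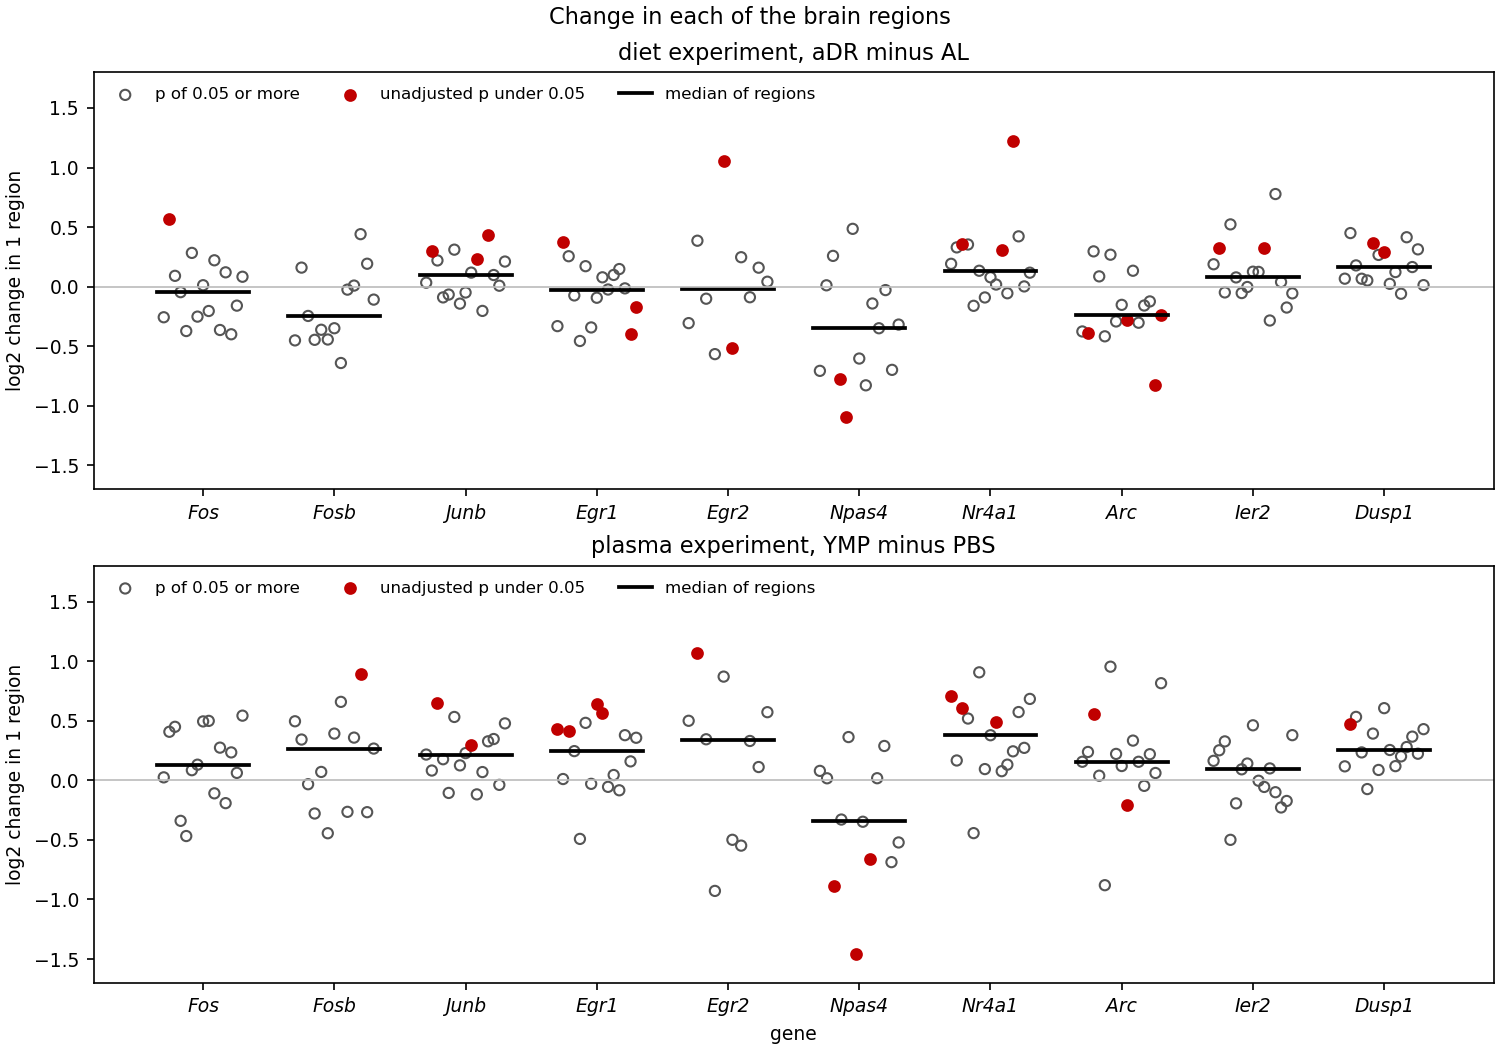
Log2 change of each gene (x axis) in each brain region where it could be tested (points), aDR minus AL above and YMP minus PBS below, with the median of the regions as a bar and filled points where the unadjusted p was under 0.05. No point passed adjustment, Npas4 has the lowest median in either panel (-0.35 and -0.34), and 9 of the 10 plasma medians lie above 0.

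Young plasma gave 0 of 140 testable pairs at an adjusted p under 0.05 in edgeR, where 0.0127% of all pairs passed. DESeq2 called 2, Junb and Egr2 in choroid plexus, and its share of all pairs is not given here. Without adjustment 17 of 140 pairs had p under 0.05, 13 of them higher in YMP mice, which is 12.1% against 6.11% of all pairs. Changes were positive in 102 of 140 pairs, compared with 74 of 141 for diet. The pairs of a mouse are not independent, and PBS mouse 80, described further on, enters the control group of every region.

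Junb in choroid plexus measured 71.7, 75.2, 58.1 and 74.5 CPM in PBS mice 72, 76, 80 and 84 and 127, 107 and 100.3 CPM in YMP mice 73, 77 and 81 (0.65 ± 0.13, edgeR adjusted p 0.9996, DESeq2 adjusted p 0.0499). Egr2 in the same libraries was 4.53, 5.09, 3.06 and 4.60 CPM in PBS and 8.75, 8.55 and 10.4 CPM in YMP mice (1.07 ± 0.21, edgeR adjusted p 0.9996, DESeq2 adjusted p 0.0499). The YMP values were above all PBS values for both genes, which were picked in this region for their small p. The libraries differed in tissue content as well: the summed level of 11 choroid plexus markers was 8306 to 10974 CPM in the 4 PBS libraries and 169 to 16557 CPM in the 3 YMP libraries. YMP mice 73 and 77 were among those nearest another region, posterior hippocampus and subventricular zone (SVZ). The part of this in the Junb and Egr2 values was not tested. With those 2 libraries left out, 1 YMP library remained, assumed to vary like the others, and the changes were 0.52 for Junb and 1.27 for Egr2 (edgeR adjusted p 0.861 for each).

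Egr1 in hypothalamus measured 56.0, 46.4 and 68.2 CPM in PBS mice 72, 80 and 84 and 73.3, 109 and 86.4 CPM in YMP mice (0.64 ± 0.18, edgeR adjusted p 0.987). In caudate putamen it was 694, 560, 464 and 579 CPM in PBS and 792, 709 and 860 CPM in YMP mice (0.43 ± 0.14, edgeR adjusted p 0.474). The groups did not overlap in either region, in pairs picked for their small p. The caudate putamen library of PBS mouse 76 lay nearest corpus callosum, and without it the change was 0.43 as well (edgeR adjusted p 0.405). Npas4 in motor cortex measured 19.96, 31.7, 33.2 and 37.1 CPM in PBS mice and 19.1, 16.9 and 21.04 CPM in YMP mice (-0.66 ± 0.20, edgeR adjusted p 0.9998), with overlap at PBS mouse 72. That library lay nearest visual cortex, and without it the change was -0.82 (edgeR adjusted p 0.346). Its most negative plasma value was in posterior hippocampus (-1.46), at 4.72, 10.2 and 5.398 CPM in PBS mice and 4.19, 1.84 and 1.57 CPM in YMP mice. The library of YMP mouse 77 lay nearest anterior hippocampus, and without it the change was -1.35 (edgeR adjusted p 0.9999). None of these values passed adjustment.

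In entorhinal cortex, all 10 genes were lower in YMP than in PBS mice (median log2 change -0.39). That rested on 1 library. The library of PBS mouse 72, nearest visual cortex in profile, held 672 CPM of Arc, against 54.1 to 151 CPM in the other 6, and 624 CPM of Egr1, against 120 to 246 CPM. It was the highest of the 7 for all 10 genes. Without it, 1 of 10 genes (Egr2) was lower in YMP mice and the median was 0.29. Arc then moved from -0.88 to 0.68 and Fos from -0.47 to 0.42, and Ier2 reached 0.62 (p 0.00410, adjusted p 0.826 in edgeR).

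**Figure D3:**
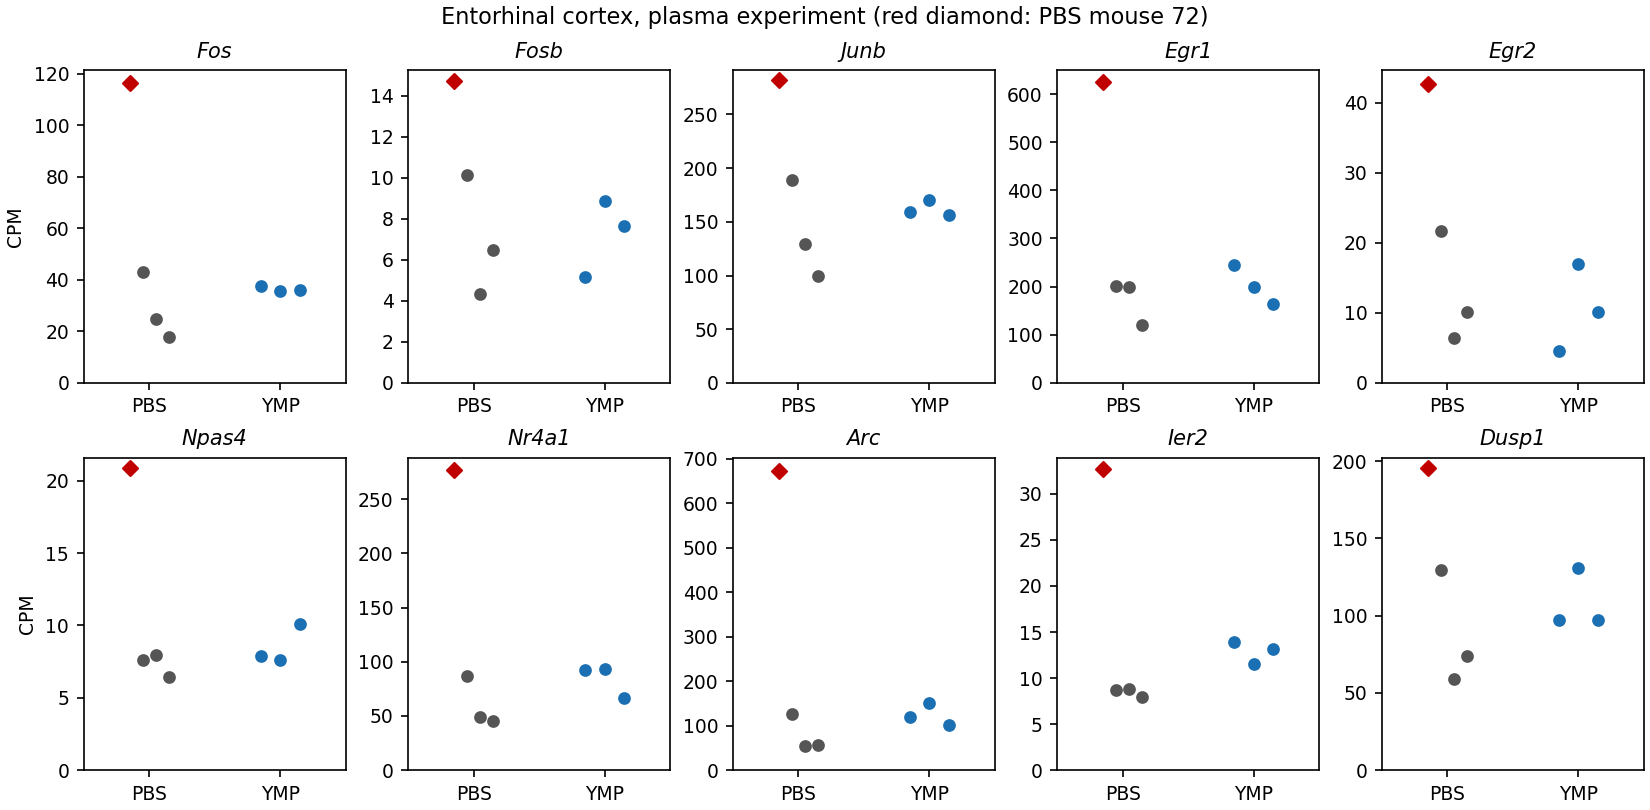
CPM of each gene in every entorhinal cortex library of the plasma experiment (4 PBS and 3 YMP mice, 1 point per mouse), with PBS mouse 72 as a red diamond. That library is the highest point in all 10 panels.

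To compare whole animals, each mouse was given 1 value per gene, its mean log2 CPM over regions after allowing for the regions it lacked. With limma on these values, 0 of 10 genes passed adjustment for diet, against 1.75% of all genes tested, and 1 of 10 had an unadjusted p under 0.05, against 16.8% of all genes. The groups overlapped for all 10 genes; they did not for 8.3% of all genes. The median change of the 10 genes was 0.042, beside -0.0062 for all genes. For plasma, limma called 0 of 10 members and 0% of all genes, 1 of 10 had an unadjusted p under 0.05 (8.35% of all genes), and 0 of 10 showed no overlap (10.1% of all genes). There 9 of 10 members were higher in YMP mice, with a median of 0.22 beside -0.0037 for all genes. That count and median moved with PBS mouse 80: without it 7 of 10 were higher, the median was 0.093 beside -0.0051 for all genes, and 0 of 10 had an unadjusted limma p under 0.05 (7.46% of all genes). For diet, leaving out AL mouse 63 gave 3 of 10 with an unadjusted p under 0.05 in limma, against 15.3% of all genes. Of these, 1 was higher and 2 were lower in aDR mice, and the median of the 10 genes was -0.0075. Leaving out aDR mouse 61 also gave 3 of 10 in limma, against 15.6% of all genes. All 3 were higher in aDR mice there, and the median was 0.10.

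Nr4a1 was the member with p under 0.05 for diet. Relative to its mean over the 9 mice it was -0.29, -0.056, -0.13 and 0.020 in AL mice 63, 66, 68 and 69, and -0.041, 0.078, 0.22, 0.0096 and 0.19 in aDR mice 61, 62, 64, 65 and 67. The change was 0.21 on the log2 scale (95% interval 0.057 to 0.35, limma p 0.0112, adjusted p 0.156), a fold of 1.15, and it was higher in 12 of 15 regions. Dusp1 was higher in 14 of 15 regions, by 0.19 over mice (-0.019 to 0.41, adjusted p 0.345 in limma), and without AL mouse 63 by 0.089 (limma adjusted p 0.622). With all libraries in a limma-voom fit and mouse as a block, Dusp1 rose by 0.19 (adjusted p 0.0373) and Npas4 fell by 0.38 (adjusted p 0.0435). Diet differs between mice, so the libraries of a mouse are not separate replicates of it. The share of all genes called in that fit is not given here. Over mouse values neither passed, and Npas4 was at -0.25 there (interval -0.87 to 0.37, limma adjusted p 0.719) and at -0.55 without AL mouse 63 (limma adjusted p 0.265).

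The other diet intervals give the sizes these data allow. Egr1 had the narrowest, -0.18 to 0.10, which is a fold of 0.882 to 1.07. Fos lay at -0.0037 (-0.29 to 0.28), Fosb at -0.19 (-0.47 to 0.10), Arc at -0.19 (-0.46 to 0.081), Egr2 at 0.13 (-0.19 to 0.44), Junb at 0.087 (-0.085 to 0.26) and Ier2 at 0.11 (-0.059 to 0.28). For plasma, Egr1 had p under 0.05, with 0.040, 0.090, -0.28 and -0.23 in PBS mice 72, 76, 80 and 84 and 0.16, 0.19 and 0.025 in YMP mice 73, 77 and 81 (0.22, interval 0.0064 to 0.44, limma adjusted p 0.594). Nr4a1 was higher in 14 of 15 regions and by 0.43 over mice, but its interval ran from -0.20 to 1.06, a fold of 0.872 to 2.09. Dusp1 was also higher in 14 of 15 regions (0.29, -0.18 to 0.77). Without PBS mouse 80 the mouse-level changes of Nr4a1 and Dusp1 were 0.16 and 0.098, and those of Fos and Ier2 turned to -0.0057 and -0.013.

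**Figure D4:**
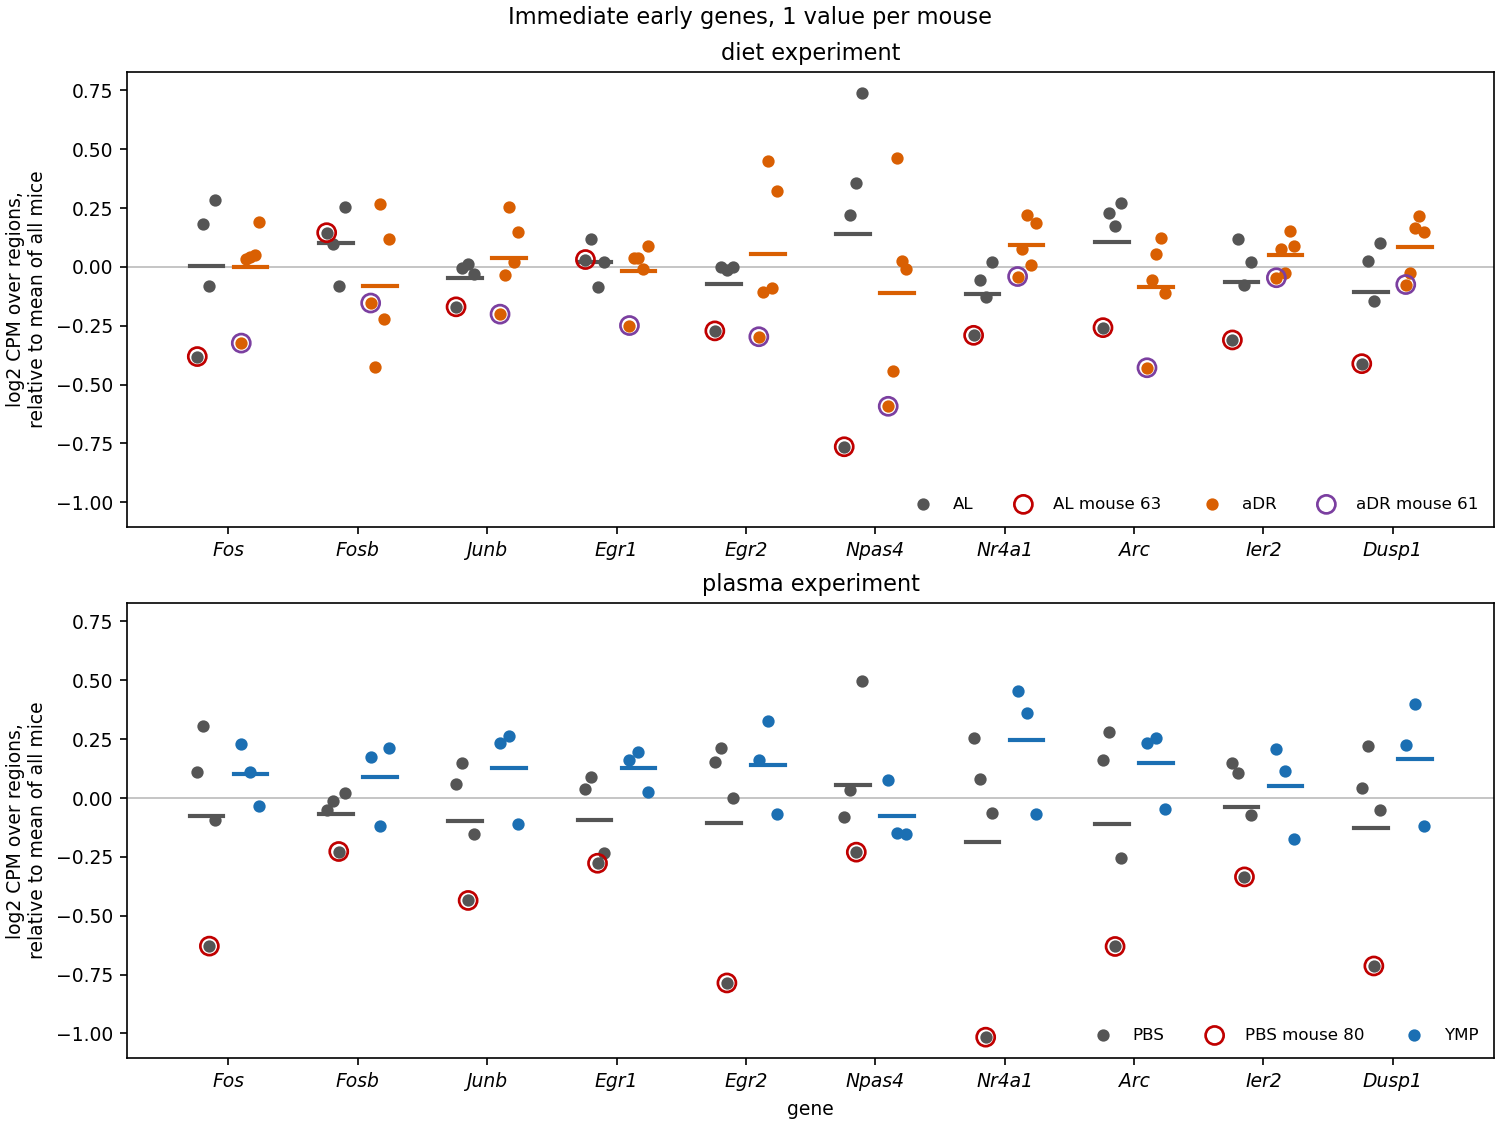
One value per mouse and gene (points), log2 CPM over all brain regions relative to the mean of all mice of that experiment, with the group mean as a bar, diet above and plasma below. PBS mouse 80 (red ring) is the lowest mouse of its experiment for all 10 genes, from -0.23 (Fosb and Npas4) to -1.02 (Nr4a1), and AL mouse 63 and aDR mouse 61 are low for most genes in the diet experiment.

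Whether the treatment differences varied between regions was tested with an F test of the treatment by region terms in edgeR, in which 0 of 10 genes passed for diet (0.0128% of all genes did) and 0 of 10 for plasma (0.786%). Before adjustment 0 of 10 had p under 0.05 in either experiment, against 2.15% of all genes for diet and 7.62% for plasma. No other tool was run for that test.

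Single mice of one group differed from each other across regions. In edgeR's F test of mouse within group, with 1 library per mouse and region, 7 of 10 genes passed in the diet experiment: Fos, Fosb, Arc, Egr2, Junb, Npas4 and Dusp1. The share among all genes was 5.97%. In the plasma experiment 7 of 10 passed as well, Fos, Arc, Egr2, Junb, Nr4a1, Ier2 and Dusp1, where 28.9% of all genes did. The largest F ratios were 13.3 for Npas4 in the diet experiment (adjusted p 3.73e-09) and 15.3 for Nr4a1 in the plasma experiment (adjusted p 1.79e-08). The regions of a mouse share the animal, its handling and its dissection, so the test says that a mouse's regions deviated together, not what they share.

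PBS mouse 80 was low across most of the brain. In visual cortex it held 264 CPM of Arc, where PBS mice 76 and 84 held 949 and 1040 CPM. Nr4a1 was 91.9 CPM there, against 270 and 389 CPM, and Dusp1 was 65.1 CPM, against 249 and 310 CPM. Over all genes and regions of the list, mouse 80 was below the mean of the other PBS mice in 121 of 150 pairs and the lowest PBS mouse in 92 of 150, or 61.3%. Over all genes tested it was the lowest PBS mouse in 23.9% of pairs of gene and region. Nr4a1 was below the other PBS mice's mean in 15 of 15 regions and Dusp1 in 14 of 15, while Npas4 was below it in 9 of 15.

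**Figure D5:**
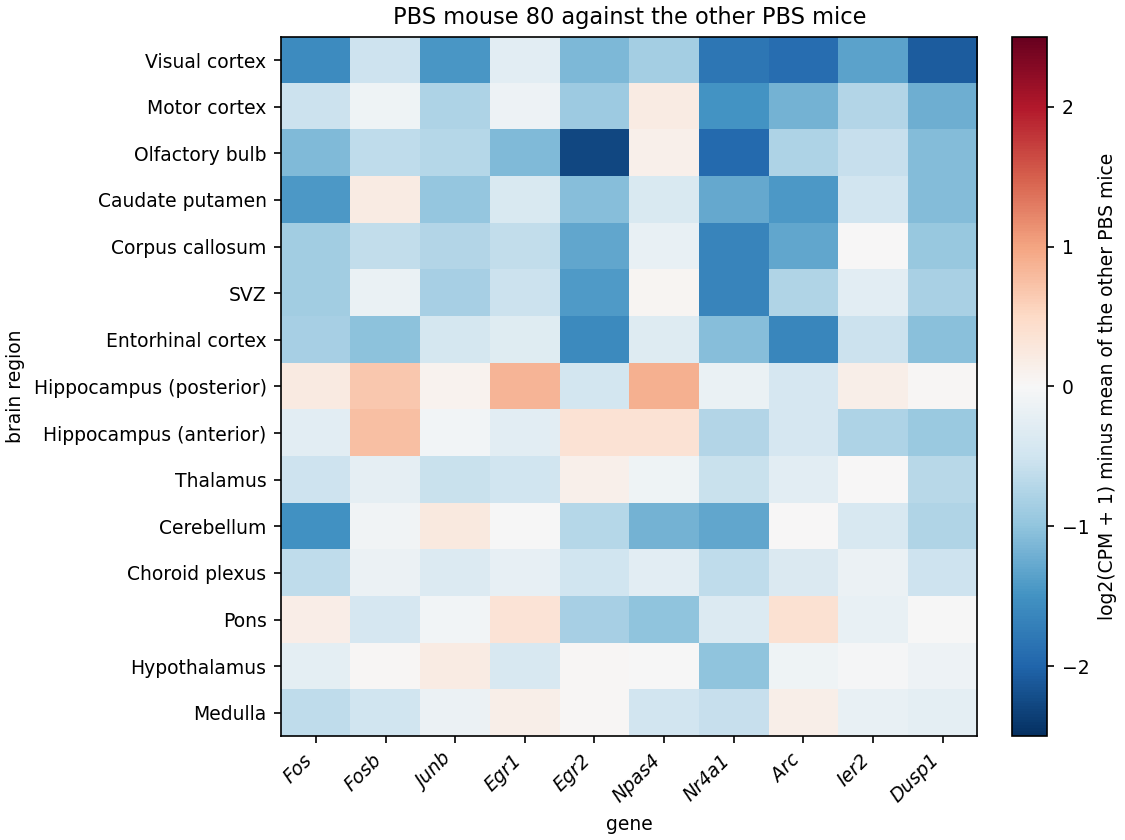
Difference between PBS mouse 80 and the mean of the other PBS mice in log2(CPM + 1), for each gene (columns) and region (rows). Blue marks lower in mouse 80: the column of Nr4a1 is blue in every region, the lowest value is -2.28 (Egr2 in olfactory bulb), and posterior hippocampus holds 7 of 10 values above 0.

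The libraries of mouse 80 had a median of 8.54 M counts, between the other PBS mice (6.19 M to 13.0 M), and a median of 2.24% mitochondrial counts (2.16 to 2.41% in the others). The mean of 10 neuron markers was -0.072 relative to the mean of all mice, against -0.045, 0.066 and 0.047 in the other PBS mice, and that of 12 glucocorticoid response genes -0.21, against -0.079, -0.059 and -0.068. Both means were the lowest of the 4 PBS mice, and their part in its member values was not tested. In YMP mice 73, 77 and 81 the glucocorticoid mean was -0.22, 0.28 and 0.35. The mean of the 10 members was 0.22, 0.18 and -0.053 in the same mice. Among YMP mice, mouse 81 was the lowest in 79 of 150 pairs, or 52.7%, compared with 31.0% over all genes. Without mouse 80, 3 of 10 genes passed the test of mouse within group (Nr4a1, Dusp1 and Junb), and 24.9% of all genes did. Without PBS mouse 84 the same 7 genes passed, while the share of all genes fell to 1.87%. The mean of the 10 genes was -0.040 in mouse 84 and -0.53 in mouse 80.

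In the diet experiment AL mouse 63 and aDR mouse 61 were low. Over mouse values AL mouse 63 had the lowest AL value for 8 of 10 genes, all but Fosb and Egr1, Npas4 being -0.76 there against 0.22 to 0.74 in the other AL mice. It was the lowest AL mouse in 86 of 150 pairs of gene and region, or 57.3%, compared with 25.5% of pairs over all genes. Mouse 61 was the lowest of 5 aDR mice in 65 of 140 pairs, or 46.4%, compared with 16.6% over all genes. The mean of the glucocorticoid response genes was -0.39 in AL mouse 63, as in AL mouse 66 (-0.39), and 0.36 in aDR mouse 61, within the range of aDR mice (0.065 to 0.54). Leaving out either mouse reduced the genes that passed from 7 to 3. Fos, Npas4 and Dusp1 passed without mouse 61, and Fosb, Egr2 and Npas4 without mouse 63. Without aDR mouse 64, 4 passed. The shares of all genes in these fits are not given here, so the drop cannot be read as particular to the members.

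Within groups the 10 genes varied together between libraries. Pearson's r between 2 members, over deviations from the group mean in all brain libraries, had a median of 0.47 over 45 pairs and ran from 0.10 (Fosb with Ier2) to 0.79 (Junb with Nr4a1, and Fos with Dusp1 at 0.78). These libraries share mice and dissections. Without PBS mouse 80 the median was 0.45. The spread within groups was 0.37 (Junb) to 0.76 (Egr2) on the log2 scale, as an SD, beside a median of 0.247 over 16063 genes. Egr2 and Npas4 (0.74), which had the widest spread, were at or near 0 counts in some regions.

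The genes that followed the 10 members most closely across those libraries were Egr4 (r = 0.64), Sertad1 (0.59), Dusp6 (0.56), Btg2 (0.56), Trib1 (0.56), Ier5 (0.53), Dusp5 (0.53), Per1 (0.51), Gadd45b (0.49) and Siah2 (0.47). Likeness was Pearson's r with the mean of the 10 scaled deviations over all brain libraries. Of these, 8 stood on a list of 35 other early response genes, and Sertad1 and Siah2 did not. In all, 16053 genes were ranked. The list was chosen with earlier results of these data known, so this is no independent support. In the plasma libraries alone 7 of the 10 names were again among the 10 most alike, and in the diet libraries alone 6.

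The wider response was described with lists of related genes over the same mouse values. Among 35 other early response genes, limma called 1 higher and 1 lower for diet, where 1.75% of all genes were called. The median change was 0.065 beside -0.0062 for all genes. Per1, a clock gene that is also induced by activity and by glucocorticoids, rose by 0.33 (adjusted p 0.0121, higher in 14 of 15 regions). Nfil3, a transcriptional repressor of the clock output, fell by 0.21 and was lower in 14 of 15 regions (adjusted p 0.0153). For plasma 0 of 35 passed and 11 had an unadjusted p under 0.05, all 11 higher, which is 31.4% against 8.35% of all genes, with a median of 0.15. The mean of these 35 was -0.28 in PBS mouse 80, against -0.0032, 0.012 and -0.017 in PBS mice 72, 76 and 84. Without that mouse 3 of 35 had an unadjusted limma p under 0.05 (8.57% against 7.46% of all genes) and the median was 0.087. Without YMP mouse 81 it was 4 of 35 (11.4% against 6.59%). The 2 with the smallest p were Plk2, a kinase of activated synapses (0.24, limma adjusted p 0.324), and Nr4a2, a relative of Nr4a1 (0.57, limma adjusted p 0.501).

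Of 18 late response and plasticity genes 0 passed in either experiment. For diet 4 had an unadjusted p under 0.05 (22.2%, against 16.8% of all genes), all lower, led by Inhba, which encodes an activin subunit (-0.32, limma adjusted p 0.0760), and Crh, corticotropin-releasing hormone (-0.39, limma adjusted p 0.143). For plasma 3 did (16.7%, against 8.35%), all higher, led by Tac1, the substance P precursor (0.42, limma adjusted p 0.200), and Scg2, which encodes secretogranin (0.25, limma adjusted p 0.200). Of 20 upstream kinases and factors, 0 passed in either experiment, and 2 had an unadjusted p under 0.05 for diet (Creb1 -0.11 and Crtc2 0.091) and 1 for plasma (Map2k1 0.10), both shares below those of all genes. Creb1 encodes CREB, Crtc2 its coactivator, and Map2k1 a kinase of the ERK cascade. Among cell type markers with diet, 3 of 9 endothelial and mural markers and 1 of 6 microglia markers were called lower, and 0 of 10 neuron markers were called. The lower ones were Tek (-0.37), Flt1 (-0.26), Cldn5 (-0.48) and Cx3cr1 (-0.13). Of 12 glucocorticoid response genes 7 were called higher, among them Plin4 (2.03, limma adjusted p 0.00278) and Tsc22d3 (0.50, 0.00451). Of all genes tested, 1.75% were called for diet, in either direction. The lists were chosen with earlier results of these data known, so these counts are no independent support. These markers and examples were named after their values were seen. Their part in the values of the members and of Per1 was not tested. For plasma all 11 choroid plexus markers were lower (median -1.28, 0 called), and 0 of 10 neuron markers were called.

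In liver, where the restricted libraries are labelled DR, only 6 of the 10 genes passed the filter on low counts. Npas4 had 0 counts in all 9 libraries, and Fosb, Arc and Egr2 were not tested. With 0 of 6 called, against 0.22% of all genes, 2 of 6 had an unadjusted p under 0.05 in edgeR, against 9.09%. Junb was 59.9, 70.8, 70.3 and 35.0 CPM in AL mice 63, 66, 68 and 69 and 27.9, 36.0, 35.3, 28.9 and 33.2 CPM in DR mice 61, 62, 64, 65 and 67. It overlapped through AL mouse 69 (-0.86 ± 0.20, edgeR adjusted p 0.132, DESeq2 adjusted p 0.0107), and without that mouse the change was -1.05 (edgeR adjusted p 0.0439). Egr1 was 86.8, 39.5, 31.5 and 10.7 CPM in AL and 11.8, 25.99, 11.98, 15.3 and 19.8 CPM in DR mice (-1.31, edgeR adjusted p 0.398). Without AL mouse 63 its change was -0.67. The groups overlapped for the other 4 genes tested: Ier2 measured 25.3 to 31.3 CPM in AL and 22.7 to 30.3 CPM in DR mice. Dusp1 measured 29.0 to 57.3 CPM in AL and 30.8 to 97.1 CPM in DR mice, and Fos 1.92 to 3.97 CPM in AL and 1.01 to 2.90 CPM in DR mice. Nr4a1 was at 1.28 to 3.39 CPM in AL and 1.58 to 2.22 CPM in DR mice.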

How the data were processed

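The authors deposited 1 table of raw read counts, with 1 library per mouse and region, and all values here derive from it. Per the labels' protocols, RNA was taken up with RNeasy columns, cDNA was made by Smart-Seq2, and Nextera XT gave unstranded libraries. The submitters' processing notes name Trim Galore 0.3.7, STAR 2.5.3a, DESeq2 and the build GRCm38. The counting program and annotation are not given in the sources used here, so exon lengths and gene positions, from GENCODE's mouse annotation of that build, may differ from the models that were counted.

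Samples were grouped by the labels' treatment and region. Each region was tested alone with edgeR 4.0.16 (quasi-likelihood F test, TMM scaling, genes kept by filterByExpr at 10 counts and 15 in total), and whole mice with limma 3.58.1 on 1 value per mouse, the mean log2 CPM (prior count 2) over regions. Treatment by region, mouse within group and region were tested with edgeR on all brain libraries of an experiment or control group. P-values were adjusted by Benjamini-Hochberg over all genes of a fit, with 0.05 as the threshold. The fits were also run on simulated counts, and the outcome is not given here. Except for the test of mouse within group, those counts carried no effect shared by the libraries of a mouse, unlike the real ones. All 10 members are named, with the 5 pairs of member and region of smallest p in each experiment, the 10 genes most like the members, and of the lists of other early, late and upstream genes those called or else the 2 with the smallest p. Replicates are separate mice. In 357 pairs of libraries of 1 group, none agreed within sampling noise (chi-square per degree of freedom at least 1.29). Counts per library (0.606 M to 32.4 M, M for mega) set the precision of scarce genes, and intervals cover the spread between mice. Alternatives were DESeq2 1.42.0, other scaling, filters, leaving out single mice, small libraries or libraries nearest another region, and mouse as a block. Mice supply several regions, which pairs the libraries: deviations from the group mean correlated at a mean r of 0.039 within and -0.013 between mice in the diet experiment, and 0.071 and -0.023 in the plasma experiment. The members and lists were chosen with earlier results of these data known.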

Additional observations from a re-analysis of the deposited data

Results flagged for a closer look

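Over the values per mouse, 2 of 48 groups held a mouse far from the others of its group, where chance gives about 1 in 20. Egr1 in aDR mouse 61 was 7.33 log2 CPM, against 7.57 to 7.67 in the other 4 aDR mice, and the gap took up 0.711 of the group's range. Egr2 in AL mouse 63 was 2.17 log2 CPM, while the remaining 3 AL mice lay at 2.43 to 2.44, and the gap took up 0.947 of the range.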

How the results depend on the processing

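Of 320 values of members over mice under the alternatives tried, 310 kept their direction and their side of the threshold, 2 passed the threshold and 8 changed sign. With all libraries and mouse as a block, 2 members were called for diet in place of 0 (Npas4 -0.38 and Dusp1 0.19) and 0 for plasma. Egr2 turned to -0.056 for diet in that fit. Diet differs between mice, so the libraries of a mouse are not separate replicates of it. Npas4 and Dusp1 had the largest diet F ratios of mouse within group (13.3 and 6.87). The share of all genes called in that fit is not given here. The interaction with mouse as a block gave 0 members in either experiment, and the region test with no replicate block gave 10 in AL and in PBS mice. For diet, leaving out 1 mouse moved Fos between -0.14 and 0.090 (0.073 without aDR mouse 61, 0.059 without AL mouse 66) and Egr1 between -0.075 and 0.015. For plasma it moved Fos between -0.0057 and 0.31, Ier2 between -0.013 and 0.20 and Npas4 between -0.23 and 0.023. Within regions, DESeq2 called 1 pair for diet and 2 for plasma, and leaving out 1 mouse gave 0 to 1 for diet. In liver DESeq2 called 1 gene, and leaving out 1 mouse gave 0 to 1. The shares of all genes called under these settings are not given here, so the counts have no background. The members called for mouse within group ran from 3 to 7 in either experiment when 1 mouse was left out, with 4 without aDR mouse 64. The share of all genes moved between such fits for plasma, and for diet it is not given here. In the diet libraries alone, 6 of the 10 most alike genes were shared. The causes were not tested. Egr2, Fosb and Npas4 were near 0 counts in some regions, which limits their precision. The fits without the libraries nearest another region, the list counts without single mice, liver under other settings, limma without a trend and the correlation without PBS mouse 80 were chosen after seeing the data.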
